A study of Mus musculus with 6 samples.

Results

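The microRNAs (miRNAs) described here come from the imprinted Dlk1-Dio3 region of mouse chromosome 12. They were taken by name, as any arm or copy of 45 miRNA numbers, of which miR-544 and miR-665 were not analysed here. This gave 70 of the 984 miRNAs measured. Members were then selected on their reads at 0 h, by a minimum of 10 summed over those libraries, which 53 met. These members come from 38 precursors. Just inside that minimum were miR-299a-5p and miR-299b-5p with 11 reads each at 0 h, and just outside it was miR-667-3p with 9. Because 0 h reads chose the members, their 0 h levels are a description, and a member with few reads at 0 h could be kept only by being read there.

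The tissue was mouse heart muscle (myocardium), with 3 small RNA libraries from 0 h after death and 3 from 6 d after death. By its title the series concerned the estimation of the post-mortem interval, the time since death, from miRNAs. No genetic change or agent is named for either time point, and the sources used here give no strain, age, sex or storage of the bodies. Whether an interval's libraries stem from different animals is not stated, and the p-values therefore cover the spread between libraries only, which may be technical.

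The Dlk1-Dio3 miRNAs are made from long non-coding RNAs transcribed from the maternal chromosome (Meg3, the antisense of Rtl1, Rian and Mirg), and form a large miRNA cluster. Each precursor hairpin is cut into a 5p and a 3p arm, and mainly the arm that is loaded into Argonaute is kept, and bases 2 to 8 of the loaded strand, the seed, choose its targets. The cluster is best known from brain, placenta, embryo and muscle stem cells.

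Of the 70 miRNAs, 67 were found in the RefSeq table of build GRCm38.p6, all on chromosome 12, and 66 on the plus strand. Their mature sequences span 172 kb, from 109572004 to 109743784. In the GENCODE annotation of this genome, the precursors of miR-431, miR-433, miR-127, miR-434 and miR-136 lie opposite an exon of Rtl1, a retrotransposon-derived gene, and miR-341 and miR-370 lie in introns of Rian. The row from miR-379 to miR-410 follows, and its distal members lie in introns or exons of Mirg. No build is named for the files, so these positions are those of RefSeq.

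The first sequences shown are the arms of 4 precursors whose balance of arms differed between the intervals, written 5′ to 3′ with the seed in capitals.
miR-127-5p (chr12:109592854-109592875): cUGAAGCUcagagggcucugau
miR-127-3p (chr12:109592888-109592909): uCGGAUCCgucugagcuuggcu
miR-434-5p (chr12:109594528-109594549): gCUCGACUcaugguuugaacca
miR-434-3p (chr12:109594565-109594586): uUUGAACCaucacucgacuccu
miR-136-5p (chr12:109595331-109595352): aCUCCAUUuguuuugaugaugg
miR-136-3p (chr12:109595366-109595387): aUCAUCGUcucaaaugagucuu
miR-382-5p (chr12:109733781-109733802): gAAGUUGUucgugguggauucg
miR-382-3p (chr12:109733819-109733840): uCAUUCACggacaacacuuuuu

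The next are neighbours with alike sequences, shown because their levels are set side by side later, followed by miR-541-5p, the longest member.
miR-379-3p (chr12:109709102-109709123): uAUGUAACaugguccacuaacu
miR-411-3p (chr12:109710225-109710246): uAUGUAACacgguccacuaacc
miR-543-3p (chr12:109717304-109717325): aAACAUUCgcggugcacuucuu
miR-495-3p (chr12:109718795-109718816): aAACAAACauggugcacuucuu
miR-300-3p (chr12:109724363-109724384): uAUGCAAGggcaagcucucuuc
miR-381-3p (chr12:109726870-109726891): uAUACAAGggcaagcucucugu
miR-299a-5p (chr12:109710644-109710665): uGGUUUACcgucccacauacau
miR-299b-5p (chr12:109710673-109710693): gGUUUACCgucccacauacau
miR-541-5p (chr12:109742422-109742446): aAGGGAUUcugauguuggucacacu

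Of the 50 members with a sequence, only miR-379-3p and miR-411-3p shared a seed, AUGUAAC, and they differ at 2 of 22 bases. The pair miR-543-3p and miR-495-3p differs at 4 of 22 bases, 2 of them in the seed. The pair miR-300-3p and miR-381-3p differs at 3 of 22, with 1 in the seed. The whole of miR-299b-5p is contained in miR-299a-5p, although it is cut from the opposite strand, and both had the same reads in all 6 libraries, so these rows share reads and stand for 1 measurement. Members were 20 to 25 bases long.

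Read depth over the 984 miRNAs was 4468547 to 7906557 at 0 h and 617069 to 1889594 at 6 d. Levels are given as normalised CPM, reads scaled to CPM and by a further factor per library. This factor is the submitters' for all libraries but 0 h replicate 1, for which it was derived. On this scale 3 reads, the limit that a count of 0 allows, correspond to 0.463 to 0.730 at 0 h and to 1.91 to 3.97 at 6 d, which covers counting error only. The tissue's own miRNAs were abundant: the summed level of 5 cardiac muscle miRNAs was 256919 to 491616 at 0 h and 113393 to 535915 at 6 d. Nearly all of this sum was miR-1a-3p (251639 to 487823 at 0 h and 110064 to 532712 at 6 d). Of the 5, 1 was called higher and 2 lower at 6 d. The summed levels of 6 marker lists were higher in every 6 d library than in every 0 h library. For 3 of them most members were also called higher: skeletal muscle (2 of 2, sums of 86.0 to 101 at 0 h and 1035 to 1858 at 6 d), epithelium (7 of 8, 143 to 442 and 1428 to 2602) and the liver miRNA (1 of 1, 668.1 to 1406 and 2086 to 23460). For red blood cells (23041 to 30248 and 57778 to 105194) only miR-451a of 4 was called higher, and miR-486a-5p and miR-144-3p overlapped between the intervals. For fibroblasts (3547 to 4985 and 5412 to 8309) the sum follows miR-199a-3p, which was not called, and 0 of 4 were called higher and 1, miR-214-3p, lower. For leukocytes (471 to 627 and 655 to 1164) 0 of 5 were called. The endothelial sum was lower (56921 to 88648 at 0 h and 25279 to 35076 at 6 d), with miR-126a-3p called lower and miR-126a-5p overlapping between the intervals. Brain and neurons, where the cluster is abundant, had 7 measured marker miRNAs. They summed to 1859 to 4368 at 0 h and 527 to 2048 at 6 d, which overlap, and 1 of 5 tested fell while 0 rose. Most of this sum was miR-128-3p (1657 to 3548 at 0 h and 460 to 1393 at 6 d). miR-9-5p had 171, 430 and 721 at 0 h and 70.0, 54.3 and 532 at 6 d. miR-124-3p reached at most 1.54 at 0 h and 6.32 at 6 d. The part of other cell types in the results that follow was not tested. In such bulk tissue fewer cells of a type and less RNA per cell cannot be told apart.

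As a whole the cluster was a small part of the heart's miRNA at both intervals. The members took 0.439%, 0.185% and 0.411% of the reads in the 0 h libraries and 0.190%, 0.223% and 0.434% in the 6 d libraries. These ranges overlap, and the highest library of each interval had nearly the same share. The reads behind them numbered 14660 to 30006 per library at 0 h and 1563 to 3587 at 6 d. Without miR-127-3p, the most abundant member, the mean share was 0.197% ± 0.079 (SD, n = 3) at 0 h, and at 6 d it was 0.236% ± 0.090 (SD, n = 3).

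The make-up of these reads differed much more than their sum. miR-127-3p held 42.2%, 42.4% and 44.2% of the cluster's reads in the 0 h libraries and 7.44%, 13.9% and 21.9% in the 6 d libraries. miR-381-3p held 15.1%, 9.52% and 12.6% at 0 h and 44.3%, 44.5% and 36.5% at 6 d. The groups do not overlap for either, and the leading member was miR-127-3p in each 0 h library and miR-381-3p in each 6 d library. As these shares are parts of a fixed total, a fall of miR-127-3p by itself raises the shares of the other members. The level of miR-381-3p, given below, was not called. The ratio of miR-127-3p to miR-381-3p reads, which does not depend on how a library is scaled, was 2.798, 4.45 and 3.51 at 0 h and 0.168, 0.312 and 0.599 at 6 d. This pair was chosen after its values were seen. The share of the 4 members most abundant at 0 h (miR-127-3p, miR-434-5p, miR-381-3p and miR-379-5p) was 73.6% to 79.4% at 0 h and 71.2% to 71.3% at 6 d.

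**Figure D1:**
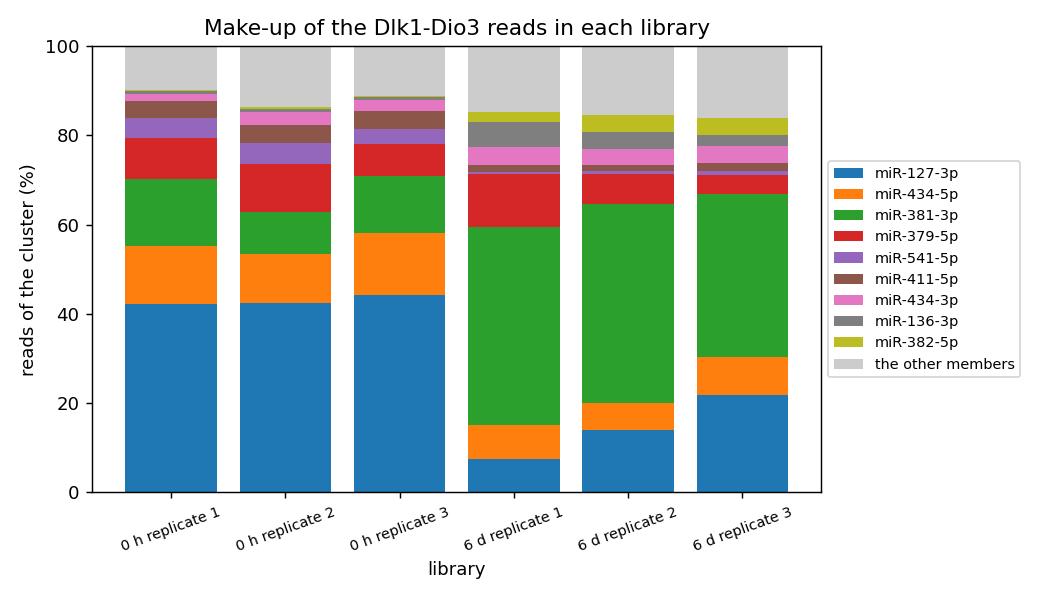
Share of the cluster's reads (%, y axis) held by 9 members and by all the others together in each of the 6 libraries (x axis). miR-127-3p, at the base of each bar, holds 42.2% to 44.2% at 0 h and 7.44% to 21.9% at 6 d, and miR-381-3p 9.52% to 15.1% and 36.5% to 44.5%.

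Levels of single members were compared with limma on log2(normalised CPM + 1), fitted over the 470 miRNAs that reached 1 normalised CPM in 3 or more libraries. Calls were made below 0.05 after Benjamini-Hochberg adjustment over all 470. Of the 53 members 51 were tested, and miR-673-3p (18 reads at 0 h, 1 at 6 d) and miR-412-5p (12 and 0) were not. Of the 51 members, 12 were lower at 6 d and 4 higher, against 21.9% lower and 16.0% higher, or 37.9% called, over all 470. The 0 h and 6 d libraries did not overlap for 23 of the 51 (45.1%), against 50.6% over all 470. The median log2 fold change was -0.25 over the 51 and -0.33 over the 470. The members' share lower (23.5%) and their median are thus near those of all tested miRNAs, and their share higher was 7.84%.

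The split of the calls moved with scaling. With library totals alone 4 members were lower and 5 higher, where 40 and 83 of all 472 tested miRNAs were and their median moved to 0.02. With RLE size factors 11 members were lower and 8 higher, where 84 and 90 of all 468 were and their median was -0.17. With edgeR's quasi-likelihood test on the recovered reads 10 of 35 tested members were lower and 6 higher, where 20.7% and 22.3% of all 363 tested were, and 13 members were called by both tests. Of the 16 limma calls, 6 were kept under each of the 16 other settings and omissions run: falls of miR-541-5p, miR-543-3p, miR-411-5p and miR-127-3p, and rises of miR-382-5p and miR-136-3p.

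**Figure D2:**
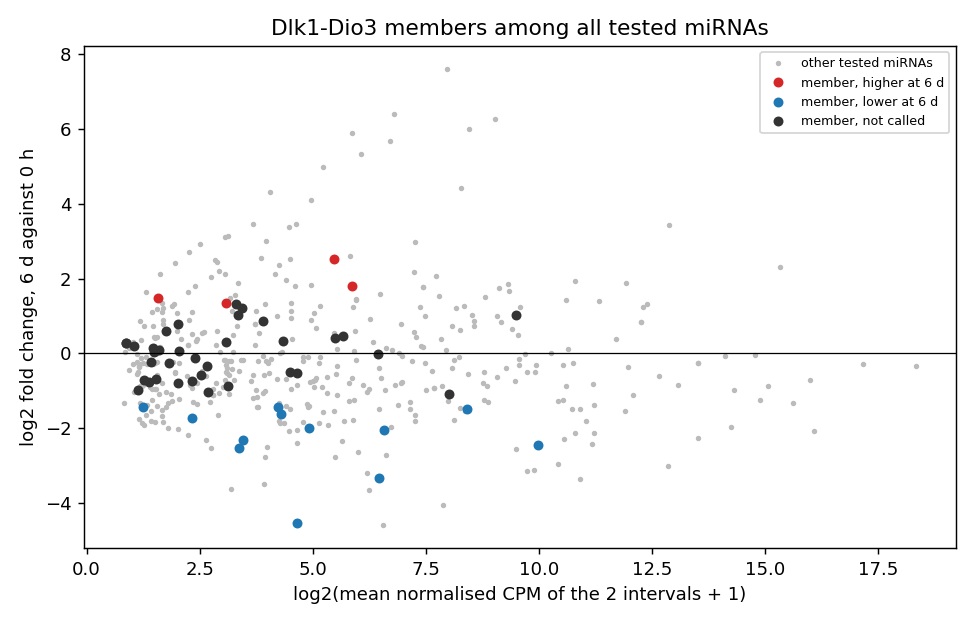
Log2 fold change of 6 d against 0 h (y axis) against the log2 mean level in normalised CPM (x axis) for the 470 tested miRNAs, with the 51 members in colour or black. The 12 lower and 4 higher members lie within the range of the other miRNAs.

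**Figure D3:**
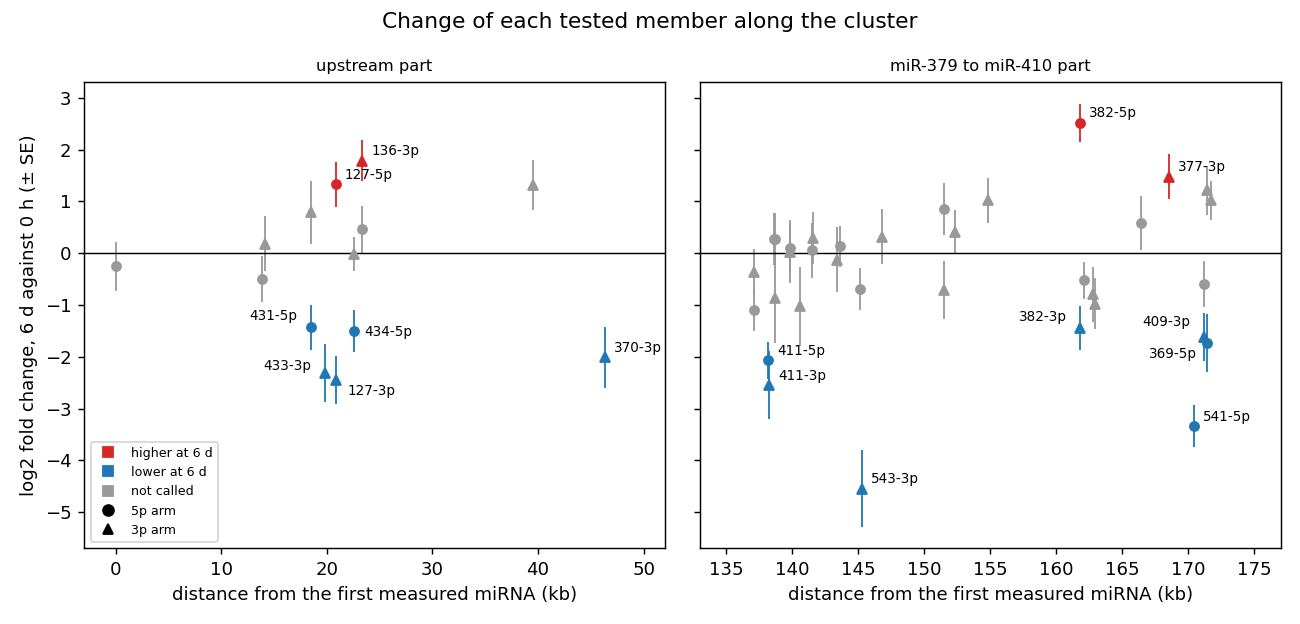
Log2 fold change ± SE (y axis) of the 48 tested members with a RefSeq position against the distance in kb from the first measured miRNA (x axis), in 2 panels because no member lies between them. Lower and higher members occur in both panels, and arms of 1 precursor stand apart at miR-127 and miR-382.

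The 5 precursors opposite Rtl1 are known to guide cleavage of its transcript, to which they are fully complementary. Of their 9 tested members 4 were called lower and 2 higher, where 21.9% and 16.0% of all 470 tested miRNAs were. The 4 include miR-431-5p, whose call is limited by the filter, as given below. The median log2 fold change of the 9 was -0.02, against -0.33 over the 470. miR-127-3p, the most abundant member, had 2015, 1034 and 2050 normalised CPM at 0 h and 169.9, 287 and 529 at 6 d. Every 6 d library lay below every 0 h library, with a log2 fold change of -2.45 ± 0.46 (limma adjusted p = 0.0031). Its other arm, miR-127-5p, had 3.65, 3.83 and 3.55 normalised CPM at 0 h and 14.6, 13.2 and 6.32 at 6 d. It stood higher in all 3 of the 6 d libraries (log2 fold change 1.33 ± 0.43, limma adjusted p = 0.034), from 15, 23 and 23 reads to 23, 10 and 7. That call was lost with no filter (adjusted p = 0.074) and without any 1 library except 6 d replicate 3 (0.076 to 0.095).

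miR-434, from the same transcript, showed a change of its 5p arm alone. miR-434-5p had 618, 267 and 645 normalised CPM at 0 h and 175.7, 128.4 and 207 at 6 d, a log2 fold change of -1.50 ± 0.41 (limma adjusted p = 0.017). The groups do not overlap. Library totals alone ended the call (adjusted p = 0.20), as did leaving out 0 h replicate 1 (0.077), 0 h replicate 3 (0.056) or 6 d replicate 2 (0.063). miR-434-3p had 82.3, 68.9 and 112 at 0 h and 94.9, 71.5 and 90.3 at 6 d, so that its groups overlap (log2 fold change -0.02 ± 0.33, limma adjusted p = 0.97).

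For miR-136 it was the 3p arm that changed. miR-136-3p rose from 26.8, 16.6 and 32.1 normalised CPM to 126.6, 80.7 and 63.2 (log2 fold change 1.79 ± 0.40, limma adjusted p = 0.0076), with every 6 d library above every 0 h library. miR-136-5p had 44.1, 24.6 and 54.0 at 0 h and 95.5, 38.4 and 42.4 at 6 d, which overlap (0.46 ± 0.46, adjusted p = 0.45).

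The remaining members of this block were scarcer. miR-433-3p fell from 14.6, 14.3 and 21.6 normalised CPM to 0.637, 2.65 and 6.32 (log2 fold change -2.32 ± 0.56, limma adjusted p = 0.0097), a call lost with library totals alone (0.084). Its 6 d values rest on 1, 2 and 7 reads. miR-431, tied to muscle regeneration through Pax7, had reads of its 5p arm in all 0 h libraries (9, 10 and 22) and in 1 of the 6 d libraries (0, 0 and 1). For the 3p arm they numbered 5, 10 and 13 at 0 h, then 1, 5 and 7. miR-431-5p reached 1 normalised CPM at 0 h only, so it passed the filter through the group where it is high and could not be tested without any 0 h replicate. Its call as lower (log2 fold change -1.43 ± 0.44, limma adjusted p = 0.028) therefore supports nothing by itself, and it was lost with library totals alone (0.15), with DESeq2 (0.20), with no filter (0.059) and without 6 d replicate 1 (0.058) or 2 (0.060). For miR-431-3p the change was 0.79 ± 0.61 (limma adjusted p = 0.33), and 1.52 without 6 d replicate 1 (0.026). The 6 d levels of miR-431-5p and, in 2 libraries, of miR-433-3p are near or under the 3-read limit, so the size of these falls is uncertain.

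Outside the Rtl1 block and the miR-379 to miR-410 row, 5 members were tested. Of these 1 fell and 0 rose, where 21.9% and 16.0% of all 470 did. miR-370-3p had 41.4, 32.9 and 61.6 normalised CPM at 0 h and 4.46, 7.94 and 27.1 at 6 d, so 6 d replicate 3 came close to the 0 h libraries. The log2 fold change was -2.01 ± 0.58 (limma adjusted p = 0.022). The call was absent with edgeR (0.065), DESeq2 (0.053) and library totals alone (0.17), and without 0 h replicate 1 (0.060), 0 h replicate 3 (0.072), 6 d replicate 1 (0.055) or 6 d replicate 2 (0.063). miR-341-3p, from the same host RNA, had 5.11, 2.83 and 5.25 at 0 h and 6.37, 19.9 and 13.5 at 6 d (log2 fold change 1.31 ± 0.48, limma adjusted p = 0.057, edgeR adjusted p = 0.028).

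In the row from miR-379 to miR-410, 37 members were tested. Of these 7 fell and 2 rose, where 21.9% and 16.0% of all 470 did. Their median log2 fold change was -0.36, against -0.33 over the 470. The 2 largest falls of all members were here. miR-543-3p had 43.3, 32.4 and 62.1 normalised CPM at 0 h, and 0, 0 and 6.32 at 6 d. The change of -4.55 ± 0.74 on the log2 scale (limma adjusted p = 0.0016) rests on 178, 195 and 402 reads at 0 h, then 0, 0 and 7 at 6 d, so its size is uncertain. Its neighbour miR-495-3p, alike toward its 3′ end, had 18.5, 7.15 and 26.9 at 0 h and 17.2, 31.8 and 13.5 at 6 d. These groups overlap (0.32 ± 0.53, limma adjusted p = 0.67). The difference between the neighbours was not tested.

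miR-541-5p fell from 218.8, 113 and 148 normalised CPM to 10.2, 13.2 and 21.7 (log2 fold change -3.34 ± 0.40, limma adjusted p = 0.00030). All 3 of the 6 d libraries lay well below the lowest 0 h library, on 16, 10 and 24 reads. Across the 16 other settings and omissions the log2 fold change ranged from -3.62 to -2.89. miR-541-3p, with 7 reads over the 0 h libraries and 0 over the 6 d ones, was no member.

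miR-379 and miR-411 open the row. Their 3p arms differ at 2 of 22 bases, and their 5p arms at 7 of 21, with 1 in the seed. miR-379-5p had 438, 261 and 340.1 normalised CPM at 0 h and 271, 140.3 and 103 at 6 d, which overlap (log2 fold change -1.10 ± 0.41, limma adjusted p = 0.057). It was called lower without 6 d replicate 1 (-1.49, adjusted p = 0.010) and with a filter of a mean of at least 10 (0.048). miR-411-5p fell from 172, 99.8 and 188 to 35.0, 29.1 and 40.6 (log2 fold change -2.07 ± 0.36, limma adjusted p = 0.0018), without overlap and with little spread among the 6 d libraries. Of the 3p arms that share a seed, miR-411-3p fell from 19.5, 7.82 and 21.1 to 0, 2.65 and 4.51 (log2 fold change -2.55 ± 0.66, limma adjusted p = 0.014). Its 6 d values rest on 0, 2 and 5 reads, so the size of this fall is uncertain (-1.50 with a pseudocount of 5). miR-379-3p had 5.84, 6.99 and 5.25 at 0 h and 2.55, 5.29 and 6.32 at 6 d (-0.36 ± 0.43, limma adjusted p = 0.55). At 0 h it stood not far above the 3-read limit of 6 d (1.91 to 3.97), which limits how large a fall could be seen. The call of miR-411-3p was lost with library totals alone (0.083) and without 0 h replicate 1 (0.054). Whether the pair differed was not tested.

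miR-381-3p, a known substrate of adenosine-to-inosine editing, was the most abundant member at 6 d. It had 720.0, 232 and 584 normalised CPM at 0 h and 1011, 920.0 and 882.4 at 6 d. The groups do not overlap, but the 0 h libraries were widely spread, and the change was not past the threshold (log2 fold change 1.02 ± 0.43, limma adjusted p = 0.086). With RLE size factors it was called (1.25, adjusted p = 0.043), as with DESeq2 (1.11, adjusted p = 0.040), while without 0 h replicate 2, its lowest library, the change was 0.53 (limma adjusted p = 0.31). The alike miR-300-3p had 35.5, 28.9 and 44.5 at 0 h and 35.0, 37.1 and 83.9 at 6 d, which overlap (0.41 ± 0.42, adjusted p = 0.46).

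miR-382 gave the clearest exchange of arms. miR-382-5p rose from 13.9, 9.15 and 13.3 normalised CPM to 53.5, 79.4 and 92.1 (log2 fold change 2.52 ± 0.37, limma adjusted p = 0.00090), the largest rise among the tested members. On 57, 55 and 86 reads at 0 h, then 84, 60 and 102 at 6 d, it was read about as often in the far shallower 6 d libraries. miR-382-3p fell from 28.0, 36.3 and 15.7 to 10.8, 6.62 and 9.02 (log2 fold change -1.44 ± 0.43, adjusted p = 0.024), a call lost with library totals alone (0.17) and without 0 h replicate 1 (0.088), 0 h replicate 2 (0.11) or 6 d replicate 2 (0.066).

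At the far end of the row, miR-409-3p fell from 32.6, 18.1 and 34.9 normalised CPM to 5.09, 7.94 and 13.5 (log2 fold change -1.62 ± 0.46, limma adjusted p = 0.020). That call was lost with library totals alone (0.20) and without 0 h replicate 1 (0.079) or 3 (0.073). miR-369-5p was called lower, from 25, 25 and 61 reads at 0 h to 0, 2 and 2 at 6 d (log2 fold change -1.74 ± 0.56, limma adjusted p = 0.033). Library totals alone gave no call (0.17), nor did RLE size factors (0.057), no filter (0.052), DESeq2 (0.11), or the omission of any 0 h replicate (0.055 to 0.12) or 6 d replicate 1 (0.089). miR-369-3p had 4.87, 5.32 and 5.10 normalised CPM at 0 h and 20.4, 17.2 and 6.32 at 6 d (1.22 ± 0.48, limma adjusted p = 0.068, edgeR adjusted p = 0.018). The last precursor, miR-410, gave 7.06, 5.49 and 4.79 of its 3p arm at 0 h and 13.4, 11.9 and 12.6 at 6 d, without overlap (1.02 ± 0.37, limma adjusted p = 0.055, edgeR adjusted p = 0.034). miR-377-3p was called higher on 0, 4 and 8 reads at 0 h, then 6, 2 and 4 at 6 d (1.48 ± 0.44, limma adjusted p = 0.024). At 0 h it reached 1 normalised CPM in replicate 3 only (1.23), so it passed the filter mainly through the group where it is high. Its call as higher therefore supports nothing by itself. The call was lost with no filter (0.055), DESeq2 (0.066) and without 0 h replicate 1 (0.13) or 2 (0.077).

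**Figure D4:**
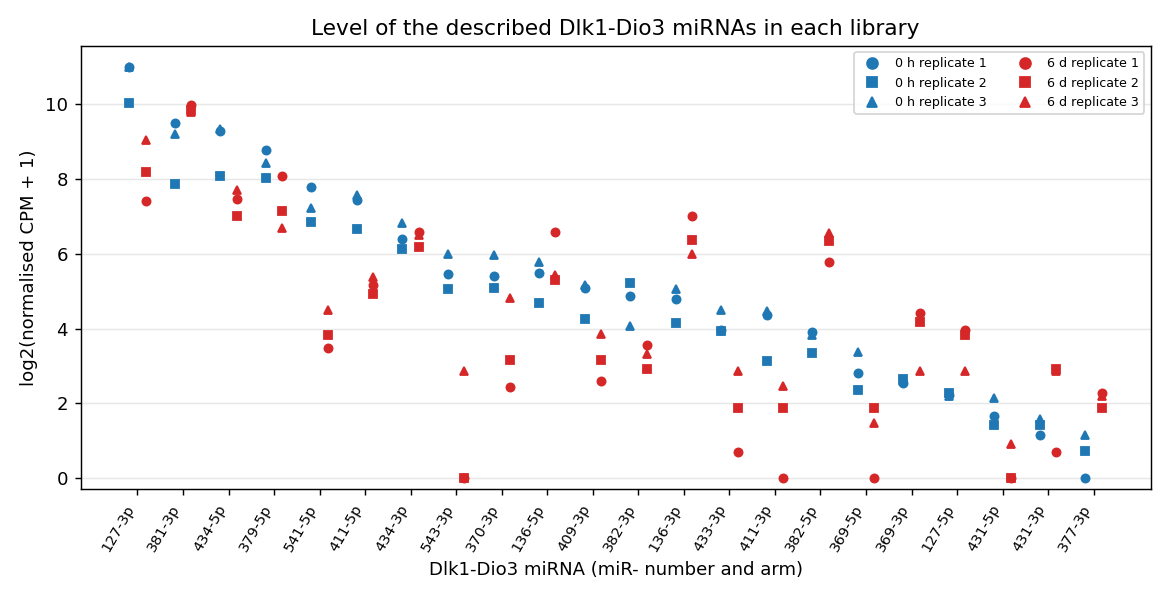
Level of 22 members, chosen for abundance, a call or a changed arm ratio, as log2(normalised CPM + 1) (y axis) in each library, ordered by the 0 h mean (x axis). Blue marks are the 3 libraries of 0 h and red marks those of 6 d, and miR-127-3p and miR-541-5p lie lower and miR-382-5p higher in all 3 of the 6 d libraries.

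Since the arms of a precursor are cut from 1 hairpin and read in the same library, their ratio does not depend on the scaling of that library. Where reads are few, the read added to both arms for the test makes the tested ratio depend on depth. For 14 precursors both arms were members and tested, and limma on the log2 of 5p over 3p reads (1 read added to both) called 6 of them. Over all 116 such precursors 45 were called, or 38.8%, so the members' count is close to the background. Of the 6, the ratio moved toward the 5p arm for miR-382 and miR-127 and toward the 3p arm for miR-136, miR-434, miR-431 and miR-369, where 19.8% and 19.0% of all 116 moved so. The call of miR-431 is limited by the filter, as given below.

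For miR-382, 5p reads were 33.1%, 20.1% and 45.7% of both arms at 0 h and 83.2%, 92.3% and 91.1% at 6 d, so the leading arm changed from 3p to 5p in every library (log2 ratio 4.01 ± 0.58 higher, limma adjusted p = 0.0026). For miR-136 the leading arm changed the other way, with 62.2%, 59.7% and 62.7% of 5p reads at 0 h and 43.0%, 32.2% and 40.2% at 6 d. The log2 ratio changed by -1.35 ± 0.40 (limma adjusted p = 0.031), and this call was lost without 6 d replicate 3 (0.056) or any 0 h replicate (0.071 to 0.12).

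miR-127 remained a 3p precursor at both intervals. Its 5p share was 0.181%, 0.369% and 0.173% at 0 h and 7.93%, 4.41% and 1.18% at 6 d (log2 ratio 4.05 ± 0.74 higher, limma adjusted p = 0.0070). miR-434 remained a 5p precursor, with a 5p share of 88.3%, 79.5% and 85.2% at 0 h and 64.9%, 64.2% and 69.6% at 6 d. Its log2 ratio changed by -1.49 ± 0.43 (adjusted p = 0.030), and the call was lost in 5 of the 6 omissions of a library, all but that of 0 h replicate 2 (0.050 to 0.13).

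In the 2 other precursors few reads stood behind the 6 d shares. miR-431 had 64.3%, 50% and 62.9% of 5p reads at 0 h and 0%, 0% and 12.5% at 6 d, on 14 reads of both arms at 6 d (log2 ratio -2.35 ± 0.53, limma adjusted p = 0.015). Its 5p arm passed the filter through the 0 h group, where it is high, so this call too supports nothing by itself. The ratio could be tested in only 3 of the 6 omissions. miR-369 had 55.6%, 43.9% and 64.9% at 0 h and 0%, 13.3% and 22.2% at 6 d, on 56 reads at 6 d (-3.17 ± 0.92, adjusted p = 0.030), lost without 6 d replicate 2 (0.067) or any 0 h replicate (0.051 to 0.076). With 5 reads added to both arms in place of 1, the changes shrank to -1.11 for miR-431 and -1.93 for miR-369. For miR-409 the groups did not overlap, at 16.3%, 20.4% and 16.0% against 27.3%, 33.3% and 28.6%, and the test fell short of a call (1.15 ± 0.40, adjusted p = 0.053). miR-379 and miR-411 gave 89.8% to 98.7% of 5p reads at 0 h and 90% to 100% at 6 d.

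**Figure D5:**
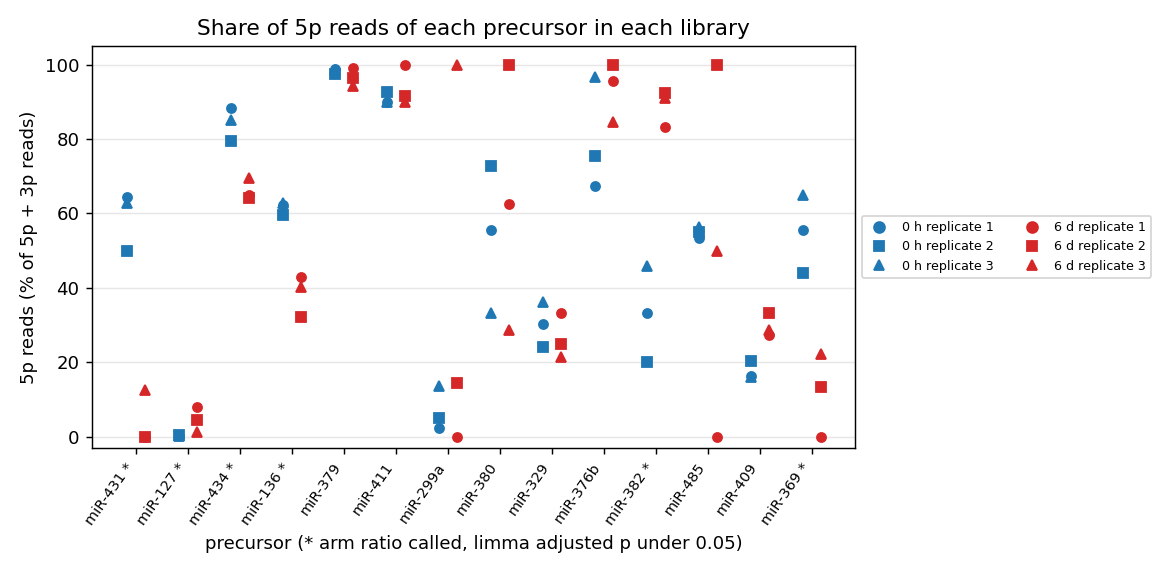
Share of 5p reads among the reads of both arms (%, y axis) in each library for the 14 precursors with both arms tested (x axis), with an asterisk at the 6 called ones. miR-382 lies below 50% in each 0 h library and above 80% in each 6 d library, and miR-136 above 59% and below 44%.

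The other 35 tested members were not called. Their log2 fold changes ranged from -1.10 to 1.31, and 27 of them had a 0 h mean under 10 normalised CPM. Among the more abundant of these, miR-134-5p, a regulator of dendritic spines through Limk1, had 36.0, 23.5 and 26.1 at 0 h and 18.5, 17.2 and 22.6 at 6 d (-0.52 ± 0.36, limma adjusted p = 0.28). miR-337-5p had 35.3, 14.8 and 27.5 at 0 h and 16.5, 11.9 and 24.4 at 6 d, which overlap (-0.50 ± 0.45, adjusted p = 0.40). Depth limits these scarce members: 39 to 45 of the 53 had at least 10 reads in a 0 h library, and 17 to 22 in a 6 d library.

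Base composition was described for the 48 tested members with a sequence. The median GC content was 48.8% for the 12 lower members (range 36.4% to 68.2%), 43.2% for the 4 higher ones (36.4% to 54.5%) and 47.6% for the 32 not called (23.8% to 68.2%). Over all tested miRNAs with a sequence it was 50.0% for the 91 lower and 45.5% for the 69 higher. By arm, 5 of 22 tested 5p members fell and 2 rose, and 7 of 29 tested 3p members fell and 2 rose. Over all 470 tested miRNAs, both arms together, 21.9% fell and 16.0% rose.

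Of the 17 named miRNAs under the minimum of 10 reads, 7 had a read at 6 d, and none had more than 9. Beyond the rule, 15 further numbers of the region were listed, and 8 miRNAs of 7 numbers were measured, all on chromosome 12. Of these only miR-770-3p, whose precursor lies in Meg3, was tested. Its reads numbered 10, 34 and 32 at 0 h, and 0, 1 and 10 at 6 d (log2 fold change -0.85 ± 0.76, limma adjusted p = 0.40).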

How the data were processed

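Trizol was used for the RNA and a NEBNext small RNA workflow for the libraries, per the labels' protocols. The submitters' processing notes list Trimmomatic 0.39, cutadapt 2.8, STAR 2.5.3a and FastQC, without roles. Which tool counted the reads, and on what build, is not given in the sources used here. The deposited values have mixed units: read counts for 0 h replicate 1, and for the other 5 libraries log2(x + 1) to 3 decimals. The values x were whole multiples of 1 step per library, within rounding, for 2692 of 2692 nonzero values that could be tested, and 418 larger ones could not. Reads were thus recovered, and 0 h replicate 1 was scaled so that the 6 factors multiply to 1, a derived scale.

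The main test was limma 3.58.1 (trended prior, robust) on log2(normalised CPM + 1), over miRNAs of at least 1 in 3 libraries, since most values are normalized. Such log2 fold changes understate the change of low miRNAs and are relative to the other miRNAs of a library. Alternatives were other scalings, pseudocounts, filters, edgeR 4.0.16, DESeq2 1.42.0, a replicate block and omission of each library. Steps were checked on simulated data. No replicate pair was a repeat of 1 library (chi-square per degree of freedom of at least 216). The members, lists and alternatives were chosen with earlier results of these data known. Members described with values were the 10 most abundant at 0 h, all called members, both arms of called ratios and the 3 largest changes each way; others were named after their values were seen.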

Additional observations from a re-analysis of the deposited data

Results flagged for a closer look

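miR-337-3p, which the minimum of 10 reads at 0 h leaves out, had 0 reads in all 3 libraries of 0 h and 9 reads over the 6 d libraries, 6, 3 and 0 of them in replicates 1, 2 and 3. Its reads appear in the data outside the comparisons. They lay above the 0 h libraries in 6 d replicates 1 and 2 only, on few reads, so the groups overlap.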

How the results depend on the processing

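With library totals alone 4 members were lower at 6 d, against 12, where 40 of all tested miRNAs were, against 103. The number of higher members, 4 (75 over all 470), became 8 with RLE size factors (90 over all 468) and 7 with DESeq2 (97 over all 507). It became 2 with no filter (65 over all 984) and, with fewer members tested, 2 with a mean of at least 10 (56 over all 275). With 1 library left out, members numbered 2 to 5 higher and 5 to 14 lower, and the count over all miRNAs was 114 to 179 against 178. Called arm ratios numbered 18 to 33 over all precursors, against 45, and 2 to 7 among the members, against 6, and 27 and 3 with both arms at a mean of 10 or more. The ratio of miR-431 could be tested in only 3 of the 6 omissions, since an arm missed the filter. The mean share of the cluster at 0 h was 0.197% without its most abundant member, against 0.345%. The change of miR-434-3p, -0.02, was 0.44 with library totals alone, 0.20 with RLE size factors, 0.0020 with recomputed TMM factors, 0.11 with edgeR, 0.19 with DESeq2 and -0.18 to 0.17 with 1 library left out, never called. Where no construction shows it, the cause was not tested. With the replicate block 195 miRNAs were called, 6 members higher and 13 lower, with 37 arm ratios, 4 of them members'. The block ended the arm-ratio calls of miR-434 (adjusted p = 0.061) and miR-136 (0.074), and made calls of miR-381-3p (0.029) and miR-379-5p (0.012). Libraries with 1 number deviated together only weakly (correlations of 0.068, 0.064 and 0.27), and 0 h replicate 1 was closest to 6 d replicate 2 (0.16), so they were not taken as pairs. Depth at 6 d limits every member near or under 3.97 normalised CPM, where 3 reads lie in 6 d replicate 2.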
